A study of Saccharomyces cerevisiae with 30 samples.

Results

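Ribosome biogenesis factors are the proteins that build ribosomes without remaining in them, and 47 of their genes are described here over 30 time points of a synchronized Saccharomyces cerevisiae culture. The genes were taken by locus tag from a list of nucleolar and pre-ribosome assembly factors, a rule that uses no measured level. All 47 were found among the 7127 features of the transcript table. Each was detected in every library, and the mean level of each passed the limit of 1 TPM, a unit (transcripts per 1000000) that gives a share of all transcripts corrected for transcript length. The culture was a MATa bar1 strain of the BF264-15D background, which lacks the protease that degrades alpha-factor. It was grown in rich medium with 2% dextrose at 38.5°C, a mild heat stress for this yeast, and that temperature was common to all time points. Cells were held for 150 min by alpha-factor, a mating pheromone that stops the cell cycle before DNA replication, and RNA was collected every 10 min for 290 min after release. Each time point had 1 library from the same culture, so no p-value is given and every difference below compares single libraries or the means of adjacent ones. In bulk RNA, fewer cells expressing a gene and less RNA per cell cannot be told apart.

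Ribosome assembly begins in the nucleolus, where RNA polymerase I transcribes a long precursor ribosomal RNA. Small nucleolar RNPs modify the precursor at sites chosen by their guide RNAs. Box C/D particles methylate riboses and box H/ACA particles convert uridine to pseudouridine. Assembly factors then fold, cleave and trim the RNA while ribosomal proteins join, DEAD-box helicases and GTPases drive the rearrangements, and export adaptors carry the subunits to the cytoplasm. In yeast the genes of these factors are known as one of the largest coordinately expressed groups. They are repressed by heat shock and by nutrient loss, and many carry a pair of promoter elements, PAC and RRPE. The repressors Dot6 and Tod6 bind PAC, and Stb3 binds RRPE.

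The levels are shares of 1000000 TPM per library, so the deposited table does not hold the read depth. The 137 cytosolic ribosomal protein genes took 41.1, 38.0, 33.8 and 29.2% of all TPM at 0, 10, 20 and 40 min, and the TPM of other genes move when this share moves. The medians of the members are therefore also given after median-of-ratios scaling, which divides each library by the median ratio of its features to their mean over the series. The scaling factor was lowest at 10 min (0.748) and highest at 150 min (1.16). For 40 and 50 min against 10 and 20 min, the median log2 ratio of the 6369 features that pass 1 TPM on average (called all features here) was 0.37 before and 0.00 after scaling. The time points 100, 140 and 150 min are those listed in the study as visible STRIPEs, sudden shifts of the whole transcriptome at single time points. The study's detector function lists 0, 10 and 20 min as STRIPEs too, and its text names 110 min. The authors left 0, 10 and 20 min out of their interpolation, as they suspected that these could be biological and come from the release. Most comparisons below hold libraries so listed or named, and the part of these libraries in the differences was not tested. The mating type of the cells was read in the receptor genes. The a-specific receptor gene STE2 was at 164 to 343 TPM, whereas the alpha-specific receptor gene STE3 was at 3.21 to 8.49 TPM. BAR1, which the strain lacks, was listed at 0 TPM throughout. The a-specific genes as a list were not steady. Their mean log2 level relative to each gene's own mean ran from -1.70 at 250 min to 2.02 at 70 min.

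PAC and RRPE were searched in the promoter of every gene, taken as 250 bases before and 50 bases from the start codon in the RefSeq R64 assembly. The PAC core was GATGAG and the RRPE core AAAAATTT, each on both strands. A PAC match cannot overlap an RRPE match, but RRPE matches on opposite strands can overlap each other. The PAC core was found in 46 of the 47 promoters (97.9%), compared to 20.4% of all 6001 promoters. The RRPE core was found in 45 promoters (95.7%), compared to 14.1% of all. Both stood in 44 promoters (93.6%), compared to 5.63% of all promoters, 70.0% of those of 110 other assembly factors and 1 of 137 promoters of ribosomal protein genes. RRP9 and ENP2 held the PAC core alone, and RIX1 held the RRPE core alone. The matches lay at a median of 120 bases before the start codon for PAC and 144 bases for RRPE. Counted from first base to first base, the nearest PAC and RRPE matches in a promoter were 17 bases apart at the median (8 bases in NOG2 to 59 bases in HAS1, 44 promoters). In the longer forms GCGATGAG and GAAAAATTT, the motifs were each found in 26 members, compared to 3.93% and 6.08% of all promoters. A match shows only that these letters are in the window. The 7 promoters printed here belong to the genes with the largest and smallest differences between time points, among them RIX1 and RRP9, which lack 1 of the cores. Each is written 5′ to 3′ on the coding strand, with matches to either core on either strand in capitals. Their coding sequences, start to stop codon, lie at chrXIV:413639-416281 (DBP2, 2 coding exons), chrVII:806412-807656 (NSR1), chrVII:695417-697234 (NOP7), chrX:212000-217309 (UTP10), chrVIII:282681-283298 (GAR1), chrVIII:493896-496187 (RIX1) and chrXVI:802359-804080 (RRP9), and all but that of DBP2 are single exons.
DBP2, 250 bases before to 50 from the start codon (R64, chrXIV:413389-413688, plus strand): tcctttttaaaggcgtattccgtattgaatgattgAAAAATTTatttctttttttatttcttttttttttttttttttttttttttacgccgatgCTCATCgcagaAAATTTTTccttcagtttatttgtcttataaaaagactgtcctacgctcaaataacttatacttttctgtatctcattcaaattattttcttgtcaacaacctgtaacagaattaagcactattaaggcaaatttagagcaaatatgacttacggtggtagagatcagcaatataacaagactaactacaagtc
NSR1, 250 bases before to 50 from the start codon (R64, chrVII:807607-807906, minus strand): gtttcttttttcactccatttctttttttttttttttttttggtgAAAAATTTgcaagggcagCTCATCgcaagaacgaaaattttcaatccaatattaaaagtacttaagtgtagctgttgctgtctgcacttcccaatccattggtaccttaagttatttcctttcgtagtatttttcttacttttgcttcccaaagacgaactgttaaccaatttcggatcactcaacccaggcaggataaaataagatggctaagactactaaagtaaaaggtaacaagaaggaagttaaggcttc
NOP7, 250 bases before to 50 from the start codon (R64, chrVII:695167-695466, plus strand): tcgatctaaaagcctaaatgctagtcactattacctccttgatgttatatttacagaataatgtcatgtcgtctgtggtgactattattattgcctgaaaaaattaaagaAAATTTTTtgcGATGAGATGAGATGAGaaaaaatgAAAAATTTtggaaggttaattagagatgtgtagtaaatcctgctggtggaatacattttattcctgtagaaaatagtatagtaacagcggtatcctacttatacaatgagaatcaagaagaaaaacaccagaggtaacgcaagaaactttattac
UTP10, 250 bases before to 50 from the start codon (R64, chrX:217260-217559, minus strand): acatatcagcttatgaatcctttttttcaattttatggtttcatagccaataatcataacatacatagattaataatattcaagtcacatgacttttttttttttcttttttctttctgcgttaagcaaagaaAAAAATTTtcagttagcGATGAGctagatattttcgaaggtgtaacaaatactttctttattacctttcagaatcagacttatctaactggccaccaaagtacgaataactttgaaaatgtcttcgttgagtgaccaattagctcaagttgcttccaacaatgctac
GAR1, 250 bases before to 50 from the start codon (R64, chrVIII:283249-283548, minus strand): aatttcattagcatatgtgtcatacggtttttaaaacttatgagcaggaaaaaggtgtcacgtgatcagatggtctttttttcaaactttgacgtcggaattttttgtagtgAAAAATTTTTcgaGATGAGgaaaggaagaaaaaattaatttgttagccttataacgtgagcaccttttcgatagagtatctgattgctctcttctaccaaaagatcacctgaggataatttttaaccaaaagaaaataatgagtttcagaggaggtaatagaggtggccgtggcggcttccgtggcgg
RIX1, 250 bases before to 50 from the start codon (R64, chrVIII:493646-493945, plus strand): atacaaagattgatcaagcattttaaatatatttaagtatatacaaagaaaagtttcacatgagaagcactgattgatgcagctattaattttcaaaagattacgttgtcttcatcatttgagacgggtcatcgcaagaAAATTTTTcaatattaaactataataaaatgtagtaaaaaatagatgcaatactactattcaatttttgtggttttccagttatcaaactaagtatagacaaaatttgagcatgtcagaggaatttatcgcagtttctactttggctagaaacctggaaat
RRP9, 250 bases before to 50 from the start codon (R64, chrXVI:802109-802408, plus strand): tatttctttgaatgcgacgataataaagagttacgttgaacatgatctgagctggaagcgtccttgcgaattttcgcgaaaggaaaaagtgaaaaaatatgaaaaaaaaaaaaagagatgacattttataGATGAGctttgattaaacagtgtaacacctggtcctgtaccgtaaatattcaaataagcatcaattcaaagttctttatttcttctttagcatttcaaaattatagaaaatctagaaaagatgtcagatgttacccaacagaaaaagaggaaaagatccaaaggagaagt

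**Figure D1:**
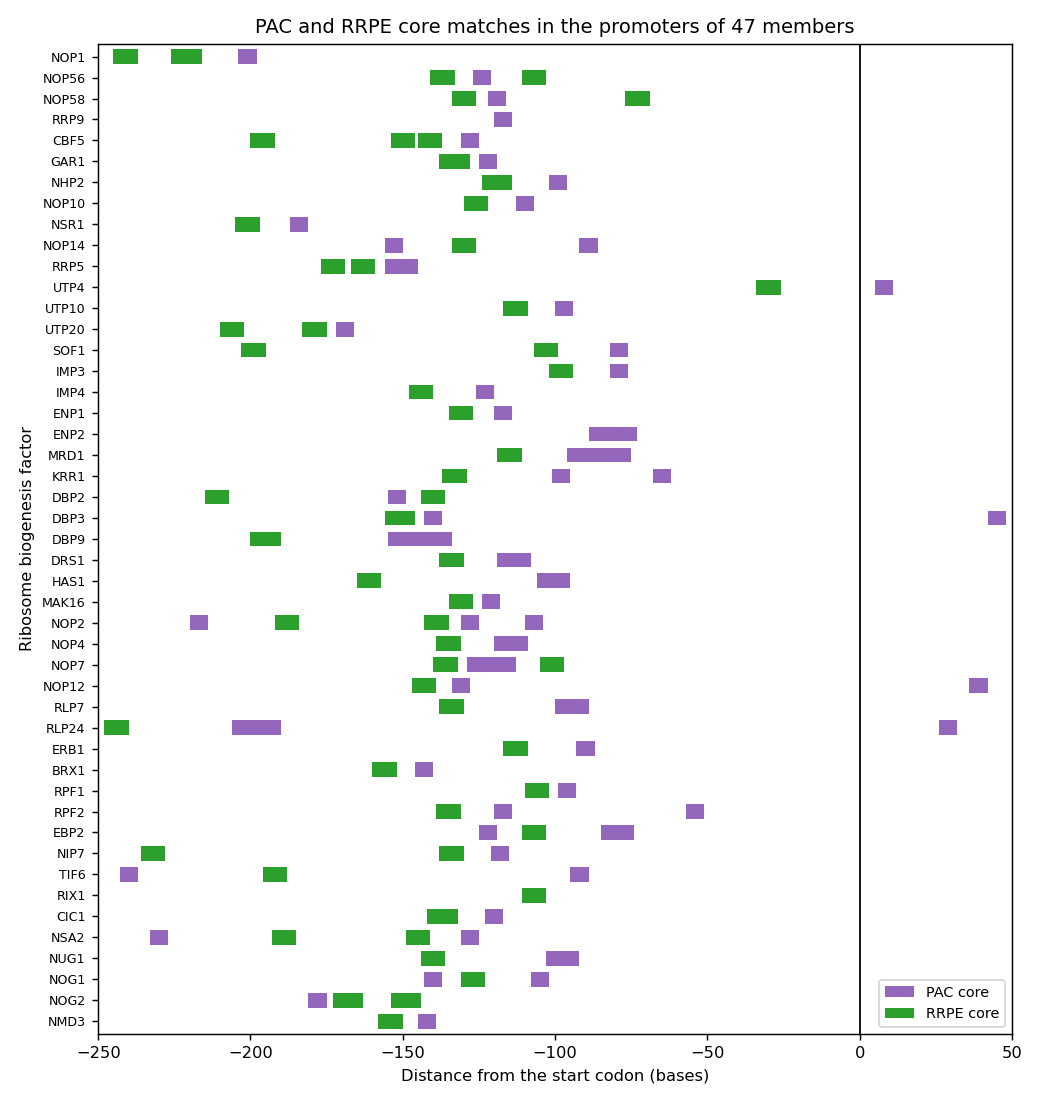
Matches to the PAC core and the RRPE core in the promoters of the 47 ribosome biogenesis factors, by distance from the start codon in bases. Each bar is 1 match, adjoining bars overlap, and most matches lie between 80 and 200 bases before the start codon.

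The cores were arranged differently from gene to gene. In NOP7, 3 overlapping copies of the PAC core stood between 2 copies of the RRPE core. DBP2 had 1 PAC core between 2 RRPE cores, and UTP10 and NSR1 had 1 of each. Of the 77 PAC core matches in members, 64 lay 80 to 200 bases before the start codon, as did 56 of the 67 RRPE core matches. In UTP4 the single PAC core lay just inside the coding sequence.

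The box C/D core proteins ranged widely in level. NOP1 (YDL014W), the fibrillarin methyltransferase, averaged 424 TPM over the series (360 to 719 TPM). Its scaffold partners NOP56 (YLR197W) and NOP58 (YOR310C) averaged 102 TPM (65.9 to 141 TPM) and 100.1 TPM (79.5 to 138 TPM). RRP9 (YPR137W), a protein particular to the U3 particle, averaged 23.2 TPM (19.1 to 29.1 TPM). The 4 box H/ACA core proteins included the highest mean TPM of the list, that of a gene with a coding sequence of 177 bases. NOP10 (YHR072W-A) averaged 604 TPM (436 to 878 TPM), GAR1 (YHR089C) 231 TPM (196 to 429 TPM), NHP2 (YDL208W) 177 TPM (151 to 314 TPM) and CBF5 (YLR175W), the pseudouridine synthase, 164 TPM (135 to 229 TPM). The 4 proteins form 1 particle, and their transcripts all had their highest level at 0 min. That time was not particular to them. In TPM, 18 members of the list, these 4 included, were highest at 0 min, compared to 7.35% of all features. After scaling, 44 members were highest at 0 min, compared to 22.6% of all features.

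Among the 13 factors of small subunit assembly, NSR1 (YGR159C), the yeast nucleolin, was highest with a mean of 188 TPM (142 to 370 TPM). The table also lists YGR160W, whose locus tag places it beside NSR1 on the other strand and which averaged 75.0 TPM. The strand setting of the counting is not given in the sources used here, so reads where they overlap cannot be told apart. The others averaged between 10.98 and 65.2 TPM. UTP4 (YDR324C), UTP10 (YJL109C) and UTP20 (YBL004W) are large components of the small subunit processome and averaged 23.4 TPM (12.1 to 35.5 TPM), 19.7 TPM (9.86 to 31.9 TPM) and 10.98 TPM (6.65 to 16.02 TPM). IMP3 (YHR148W) and IMP4 (YNL075W), which help U3 pair with the precursor, averaged 39.0 TPM (29.9 to 56.2 TPM) and 38.4 TPM (31.3 to 52.9 TPM). SOF1 (YLL011W), a partner of fibrillarin, averaged 29.6 TPM (23.2 to 39.2 TPM). NOP14 (YDL148C), another processome protein, averaged 16.8 TPM (8.89 to 25.5 TPM) and MRD1 (YPR112C), an RNA-binding protein of the processome, 27.5 TPM (17.1 to 38.2 TPM). RRP5 (YMR229C), which acts in cleavages for both subunits, averaged 30.9 TPM (18.7 to 43.1 TPM). ENP1 (YBR247C), which stays on the particle to late steps, averaged 39.0 TPM (26.4 to 53.1 TPM), ENP2 (YGR145W), also of the processome, 25.4 TPM (16.4 to 37.1 TPM) and KRR1 (YCL059C), an RNA-binding protein of early small subunit particles, 65.2 TPM (43.4 to 87.7 TPM).

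The 5 DEAD-box helicases had means between 26.5 and 76.7 TPM. DBP2 (YNL112W), which also acts on messenger RNPs, averaged 76.7 TPM (51.5 to 188 TPM), the widest range of the list with a 3.64-fold gap between its highest and lowest time point. HAS1 (YMR290C), used in both subunits, averaged 49.7 TPM (36.5 to 78.9 TPM), DBP3 (YGL078C) 45.3 TPM (33.8 to 63.8 TPM), DRS1 (YLL008W) 38.2 TPM (29.7 to 56.4 TPM) and DBP9 (YLR276C) 26.5 TPM (19.5 to 37.4 TPM), the last 3 being factors of the large subunit. The 3 GTPases NOG1 (YPL093W), NOG2 (YNR053C) and NUG1 (YER006W) of the large subunit averaged 76.5 TPM (58.4 to 109 TPM), 50.8 TPM (39.3 to 70.6 TPM) and 50.6 TPM (36.1 to 75.1 TPM). NMD3 (YHR170W), the adaptor that links the large subunit to the export receptor, averaged 51.8 TPM (37.4 to 74.3 TPM). The snoRNA gene SNR191, of 274 bases, lies on the same strand inside the span of NOG2.

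The 17 other factors of large subunit assembly had a median mean of 46.8 TPM. TIF6 (YPR016C), which keeps the unfinished large subunit from joining the small one, was highest at 174 TPM (149 to 271 TPM). RLP24 (YLR009W) and RLP7 (YNL002C), relatives of ribosomal proteins that hold their places during assembly, averaged 113 TPM (84.4 to 169 TPM) and 43.1 TPM (29.1 to 60.2 TPM). NOP7 (YGR103W) and ERB1 (YMR049C), partners in 1 complex, averaged 49.9 TPM (35.8 to 82.2 TPM) and 42.0 TPM (31.9 to 64.3 TPM). RPF2 (YKR081C), which brings in the 5S RNP, averaged 48.8 TPM (37.0 to 70.6 TPM), and its relatives BRX1 (YOL077C) and RPF1 (YHR088W) averaged 72.3 TPM (44.7 to 98.0 TPM) and 30.6 TPM (21.8 to 40.4 TPM). NIP7 (YPL211W), a small RNA-binding protein, averaged 73.8 TPM (46.5 to 107 TPM), NSA2 (YER126C), of nuclear large subunit particles, 67.9 TPM (52.6 to 95.3 TPM) and MAK16 (YAL025C), of early large subunit particles, 60.2 TPM (46.2 to 92.6 TPM). EBP2 (YKL172W), a partner of BRX1, averaged 46.8 TPM (36.0 to 79.8 TPM) and NOP2 (YNL061W), a methyltransferase of the large subunit RNA, 45.3 TPM (31.5 to 65.7 TPM). The RNA-binding proteins NOP12 (YOL041C) and NOP4 (YPL043W) averaged 33.3 TPM (21.5 to 43.4 TPM) and 25.6 TPM (20.5 to 37.0 TPM). CIC1 (YHR052W), which binds the internal spacer, averaged 33.2 TPM (20.8 to 48.4 TPM), and RIX1 (YHR197W), which acts in removal of that spacer, 14.9 TPM (7.96 to 24.1 TPM). Over the 47 genes the highest level exceeded the lowest by 2.02-fold at the median (1.52 to 3.64), compared to 1.96-fold for 5103 features above 0 TPM at every time point and averaging 10 TPM or more, and 1.52-fold for ribosomal protein genes.

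Most members were high at release, low in the next 2 libraries and high again around 50 min. The mean over members of the log2 level relative to each gene's own mean was 0.41, -0.36, -0.33, 0.09, 0.32 and 0.46 in the libraries of 0, 10, 20, 30, 40 and 50 min. Later means were 0.29 for 60 min, 0.00 for 80 min and -0.15 for 110 min. After scaling, the mean was 0.77, 0.05, -0.21, -0.01, 0.25 and 0.26 in the libraries of 0 to 50 min, so that the 10 min library was no longer below the mean of the series. All 47 members were above their own mean at both 40 and 50 min (63.5 and 76.8% of all features), and none was at 20 min (31.01%). Summed over the list, the libraries of 0, 10, 20 and 50 min held 5706, 3428, 3214 and 4880 TPM. These sums are 0.571, 0.343, 0.321 and 0.488% of all TPM. From 80 min on, the lowest sum was 3371 TPM (180 min) and the highest 4005 TPM (150 min). The highest level was that of 0 min in 18 members, compared to 7.35% of all features, and that of 50 min in 26, compared to 18.2%. With SOF1 and RPF1, highest at 40 min, and KRR1, highest at 60 min, 29 members had their highest level at 40 to 60 min, compared to 25.8% of all features. After scaling, 44 members had their highest level at 0 min (22.6% of all features), and only UTP4, UTP10 and RIX1 had it at 40 to 60 min (12.2%). The lowest level was that of 10 min in 20 members and that of 20 min in 13, compared to 39.5% of all features for both time points together. After scaling these numbers were 3 and 13, compared to 16.4% of all features.

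**Figure D2:**
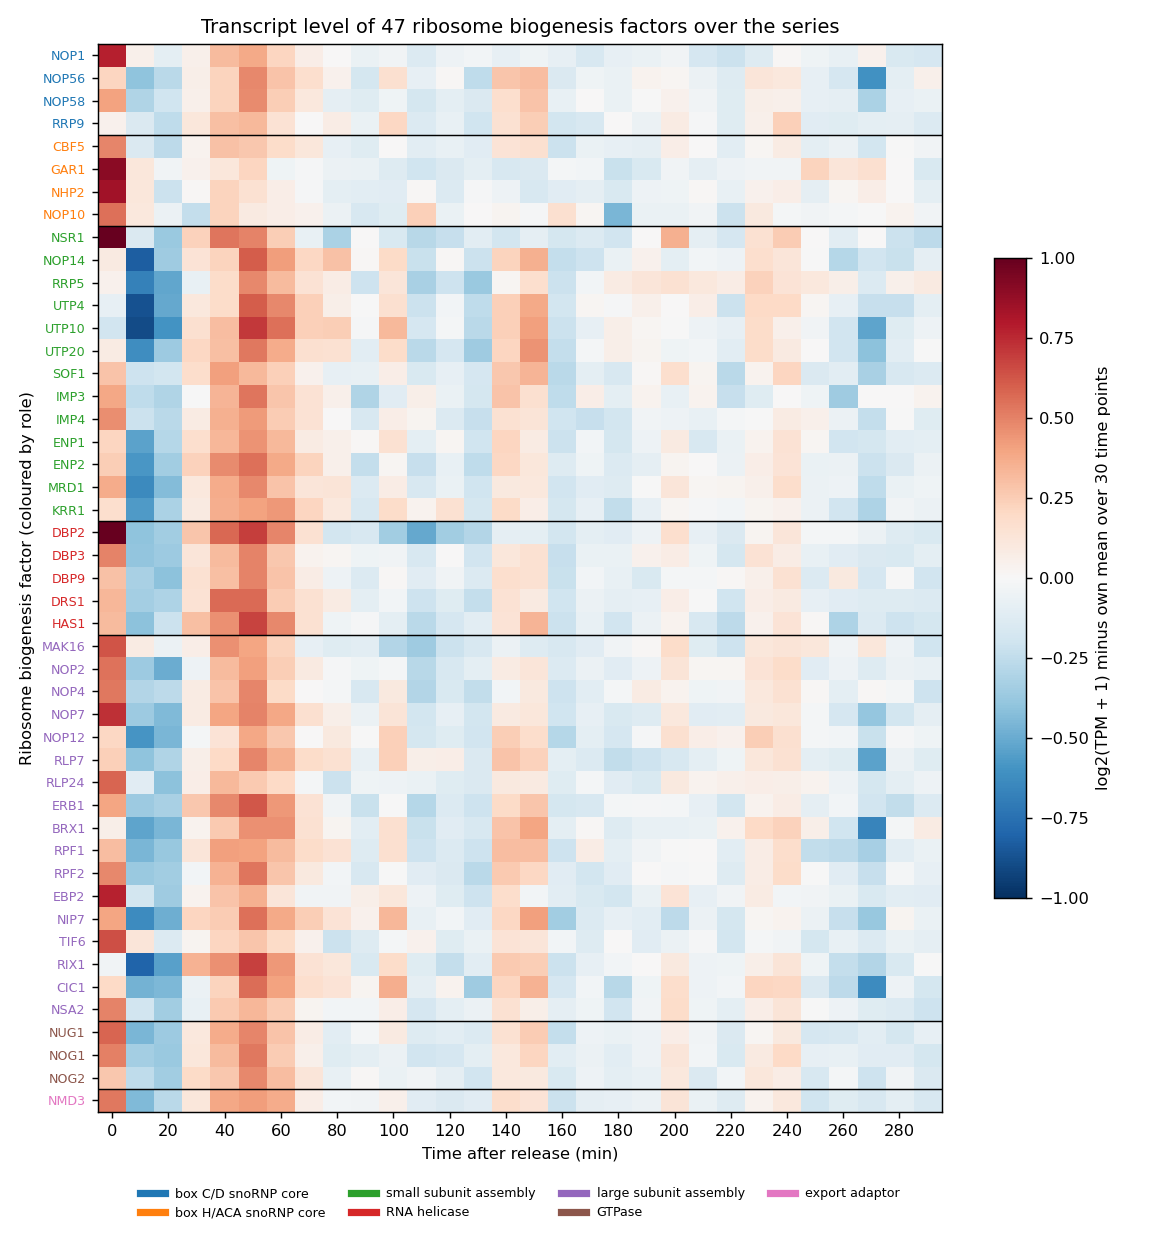
Level of each of the 47 genes at each time point after release, as log2(TPM + 1) minus the gene's own mean over the 30 time points, in rows ordered and coloured by role. Red is above and blue below the own mean, and the columns at 10 and 20 min are blue and those at 40 and 50 min red in nearly every row.

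**Figure D3:**
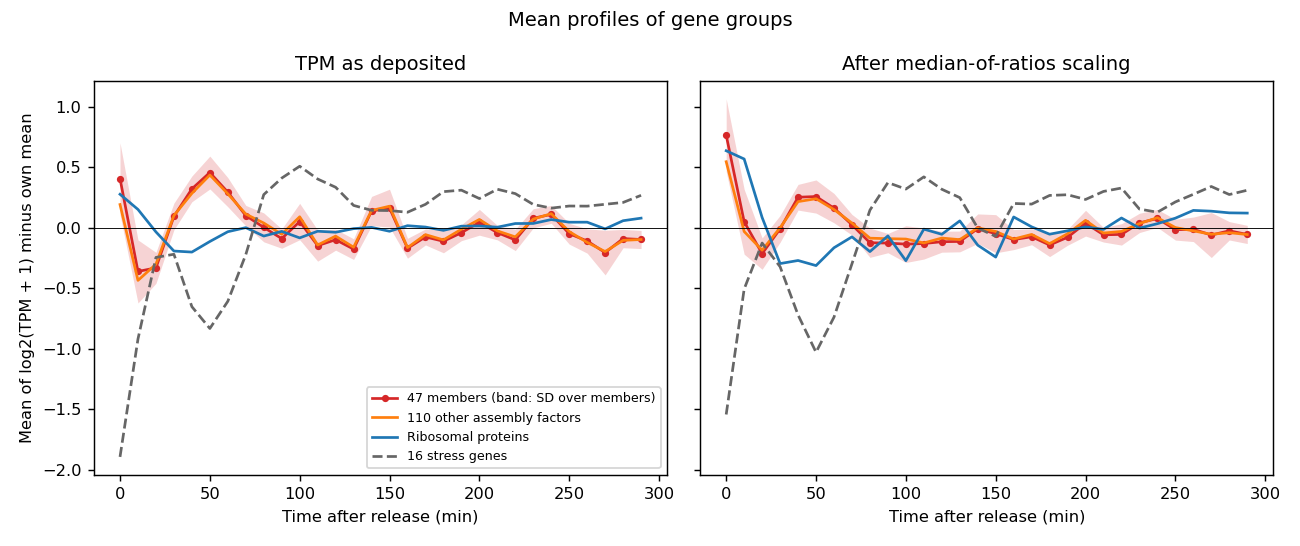
Mean log2(TPM + 1) minus own mean, by time after release, for the 47 members (red, band 1 SD over the members), 110 other assembly factors, the ribosomal protein genes and 16 stress genes, as deposited (left) and after median-of-ratios scaling (right). The members were at -0.36 at 10 min and 0.46 at 50 min as deposited, and after scaling at 0.05 and 0.26.

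At 10 min all 47 genes were lower than at 0 min, as were 58% of all features. The comparison of 10 min with 0 min was added after the values had been seen. DBP2 was at 55.6 TPM at 10 min, against 188 TPM at 0 min, a log2 ratio of -1.74. NSR1 was at 166 TPM at 10 min, against 370 TPM at 0 min (log2 ratio -1.15), and NOP7 was at 37.9 TPM, against 82.2 TPM at 0 min (-1.10). NUG1, NIP7 and MRD1 were also at least 2-fold lower. The smallest differences were those of RRP9, with 20.8 TPM at 10 min against 23.9 TPM at 0 min (-0.19), NOP10 (-0.44) and SOF1 (-0.49). The median log2 ratio of the 47 was -0.73 (SD 0.23 over genes), compared to -0.07 for all features, and scaling left it at -0.68. Levels were at least 1.5-fold lower in 40 members, compared to 10.7% of all features, and at least 2-fold lower in 6, compared to 3.27%. After scaling, 37 members were at least 1.5-fold lower (9.09% of all features). By role, the median ran from -0.66 for the box C/D core proteins to -0.84 for the GTPases, and NMD3 was at -0.97. At 20 min DBP2 was at 57.7 TPM and NSR1 at 142 TPM, close to or below the levels at 10 min.

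All other assembly factors were below 0 at 10 min too, whereas 14 of 16 stress genes were above 0. The median log2 ratio of 10 min to 0 min was -0.59 for 59 other small subunit factors and -0.66 for 51 other large subunit factors, and all 110 were below 0. After scaling these medians were -0.54 and -0.60. The lowest ratios were those of ECM1, a pre-ribosome export factor (-1.12), and HCA4, a helicase (-1.03). RNA polymerase I genes had a median of -0.41 (15 of 16 below 0), with RPA135, its second largest subunit, at -0.87 and RRN9, of the upstream activating factor, at 0.46, and a scaled median of -0.36. The median was -0.35 for 20 genes of the exosome and other RNA nucleases, -0.09 for 19 RNA polymerase III genes and -0.12 for 135 ribosomal protein genes, the last 2 near the -0.07 of all features. After scaling they were -0.30, -0.03 and -0.07, compared to -0.02 for all features. The regulators TOD6 and DOT6, repressors that bind PAC, were at -1.04 and -0.69. STB3, which binds RRPE, was at 0.22, and SFP1, an activator of these genes, at -0.37. Of the 16 stress genes, which encode chaperones and enzymes of carbon reserves and oxidative defence, 8 were at least 2-fold higher at 10 min, compared to 3.11% of all features, and their median was 1.04 after scaling. HSP42, a small chaperone gene, was at 110 TPM at 10 min, against 21.1 TPM at 0 min, and HSP104, a disaggregase gene, at 139 TPM, against 32.8 TPM. The 4 G1/S cyclin genes, which mark the start of the cell cycle, had a median ratio of 1.46. With 1 culture, cell cycle position, time since release and library cannot be told apart.

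At 40 and 50 min the levels of the members were higher again. The means at 40 and 50 min were set against those at 10 and 20 min, a comparison also added after the values had been seen. UTP10 was at 24.04 and 31.9 TPM at 40 and 50 min, against 9.86 and 12.3 TPM at 10 and 20 min, a log2 ratio of 1.26. RIX1 was at 20.4 and 24.1 TPM, against 7.96 and 9.75 TPM at 10 and 20 min (1.24), and UTP4 at 26.2 and 35.5 TPM, against 12.1 and 15.8 TPM (1.09). DBP2 was at 110 and 120 TPM, against 55.6 and 57.7 TPM (1.01). The 3 smallest ratios belonged to box H/ACA proteins. GAR1 was at 247 and 265 TPM at 40 and 50 min, against 248 and 222 TPM at 10 and 20 min (0.12), NOP10 had a ratio of 0.13 and NHP2 of 0.23. The median ratio was 0.79 (SD 0.25 over genes), compared to 0.37 for all features and -0.25 for ribosomal protein genes. Levels were at least 1.5-fold higher in 36 members, compared to 25% of all features, and at least 2-fold higher in 4, compared to 4.15%. In 45 members both later libraries were above both earlier ones (65.8% of all features), and GAR1 and NOP10 were the exceptions. Scaling took the median to 0.38, left 5 members at least 1.5-fold higher (5.42% of all features) and placed GAR1, NOP10, NHP2, TIF6 and NOP1 below 0, at -0.30, -0.29, -0.20, -0.18 and -0.06.

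Over the 30 libraries the lowest, median and highest levels were 51.5, 69.0 and 188 TPM for DBP2, 142, 172 and 370 TPM for NSR1 and 35.8, 46.7 and 82.2 TPM for NOP7. They were 9.86, 18.9 and 31.9 TPM for UTP10, 7.96, 14.3 and 24.1 TPM for RIX1 and 196, 223 and 429 TPM for GAR1. For DBP2, NSR1 and GAR1 the library of 0 min was the highest. For UTP10 it was below the median, at 16.7 TPM, and for RIX1 close to it, at 14.2 TPM. After scaling, UTP10 and RIX1 were at 21.4 and 18.3 TPM at 0 min, against 27.6 and 20.9 TPM at 50 min.

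**Figure D4:**
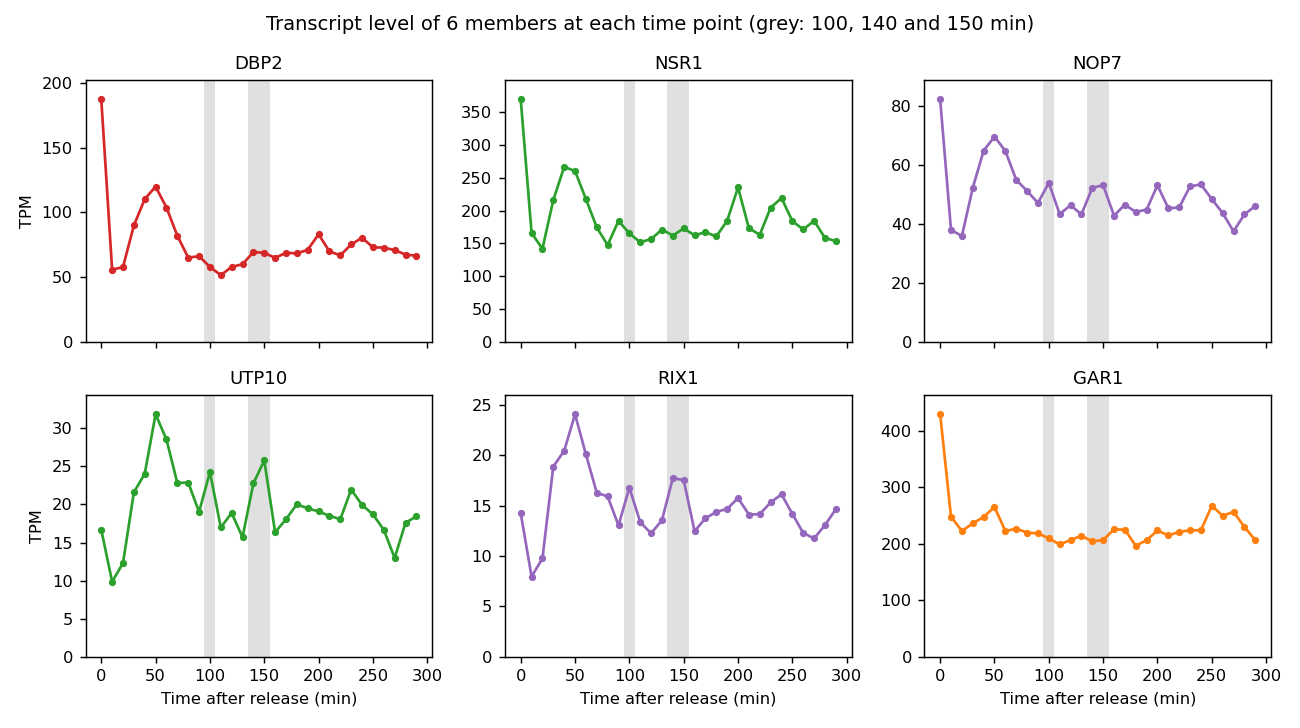
TPM of DBP2, NSR1, NOP7, UTP10, RIX1 and GAR1 at each of the 30 time points after release, 1 library per point, with the 3 time points listed as visible STRIPEs shaded. DBP2 was highest at 0 min at 188 TPM, UTP10 and RIX1 at 50 min at 31.9 and 24.1 TPM, and GAR1 stayed between 196 and 267 TPM after 0 min.

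The other assembly factors were close to the members in this interval. Their medians were 0.78 for the small subunit and 0.67 for the large subunit, all 110 ratios were above 0, and URB2, at 1.31, and CMS1, at 1.17, were the largest. RNA polymerase I genes had a median of 0.59, with RPA190 and RPA135, the 2 largest subunits, at 1.15 and 1.06 and RPA14 and HMO1 at -0.08 and -0.04. The stress genes had a median of -0.21, and HXK1, a hexokinase gene, was at -1.56. After scaling, 58 of 59 small subunit and 46 of 51 large subunit factors were above 0, with medians of 0.38 and 0.28, compared to 0.00 for all features. The scaled median was 0.22 for RNA polymerase I genes, -0.58 for stress genes and -0.68 for ribosomal protein genes.

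At 110 to 130 min the levels of the members were lower again. The means at 110, 120 and 130 min were set against those at 40 and 50 min, likewise added after the values had been seen. DBP2 was at 51.5, 57.8 and 59.9 TPM at 110, 120 and 130 min, against 110 and 120 TPM at 40 and 50 min, a log2 ratio of -1.02. ERB1 was at 33.7, 37.5 and 35.6 TPM, against 58.0 and 64.3 TPM at 40 and 50 min (-0.76), and DRS1 at 32.6, 34.6 and 31.9 TPM, against 56.2 and 56.4 TPM (-0.75). In 46 members, these 3 included, every later library was below both earlier ones (42.1% of all features). NOP10 was the exception, with 706, 571 and 601 TPM at 110, 120 and 130 min, against 701 and 637 TPM at 40 and 50 min (-0.10). The next smallest ratios were those of NHP2 (-0.23) and TIF6 (-0.30). The median ratio of the 47 was -0.52 (SD 0.16 over genes), compared to -0.15 for all features and 0.13 for ribosomal protein genes. Levels were at least 1.5-fold lower in 15 members, compared to 5.12% of all features, and DBP2 alone was 2-fold lower (0.754% of all features). The 1.5-fold count was 28 without the 40 min library (9.55% of all features) and 9 without the 50 min library (3.52%). After scaling the median was -0.37, 4 members were at least 1.5-fold lower (2.1% of all features), and NOP10 was above 0 at 0.06. The stress genes went the other way, with a median of 1.22 and 10 of 16 at least 2-fold higher (1.4% of all features), and a scaled median of 1.37.

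No member reached 2-fold in any of the 5 other comparisons, which follow the culture from release to its end. For 30, 40 and 50 min against 0, 10 and 20 min, 3.78% of all features were at least 2-fold higher and 0.754% lower. The median ratio of the members there was 0.35, compared to 0.38 for all features, and -0.10 after scaling. Levels were at least 1.5-fold higher in 6 members, compared to 23.8% of all features. UTP10 (0.94), RIX1 (0.92) and UTP4 (0.77) were highest, and GAR1 (-0.26), NOP10 (-0.19), NHP2 (-0.18), TIF6 (-0.07) and NOP1 (-0.04) were below 0. The ratio farthest from 0 was that of NOP56 (0.39) among the box C/D proteins, HAS1 (0.56) among the helicases and NOG2 (0.40) among the GTPases. All later libraries were above all earlier ones in 6 members, compared to 51.9% of all features. This number was 41 without the 0 min library (62.4% of all features) and 20 without the 30 min library (56.6%). The median ratio without 0 min was 0.68, compared to 0.37 for all features, and 2 members then passed 2-fold (3.31%). The means over 0, 10 and 20 min thus joined the high level at 0 min with the low levels at 10 and 20 min.

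The next comparison placed 60, 70 and 80 min against 30, 40 and 50 min, where 0.958% of all features were at least 2-fold higher and 0.298% lower. All 47 members were below 0, with a median of -0.16, compared to -0.01 for all features, and of -0.15 after scaling, compared to 0.00. NSR1 (-0.46), DBP2 (-0.35) and MAK16 (-0.30) were lowest, and RLP7 (-0.03), NOP10 (-0.02) and CIC1 (-0.02) were nearest 0. In 1 member all later libraries were below all earlier ones, compared to 12.5% of all features. Without the 30 min and the 60 min library this number was 32 (18.9% of all features) and 22 (21.7%). For 110, 120 and 130 min against 60, 70 and 80 min, 0.534% of all features were at least 2-fold higher and 1.02% lower, and the members had a median of -0.26, compared to -0.13. After scaling it was -0.12, compared to -0.01. In 33 members every later library was below every earlier one, compared to 37.4% of all features, and after scaling in 14, compared to 17.4%. DBP2 (-0.56), UTP10 (-0.50) and UTP20 (-0.49) were lowest, and NOP10 alone was above 0, at 0.04, with TIF6 (-0.06) and NHP2 (-0.03) next to it. For 250 to 290 min against 160 to 200 min, 0.236% of all features were at least 2-fold higher and 0.251% lower, and the median of the members was -0.04, compared to -0.07 for all features. After scaling it was 0.04. CIC1 (-0.18), RPF1 (-0.15) and UTP10 (-0.13) were lowest and GAR1 (0.17), NHP2 (0.07) and IMP4 (0.07) highest.

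At 140 and 150 min, 2 of the time points listed as STRIPEs, most members stood above the flanking libraries. UTP20 was at 12.7 and 15.1 TPM at 140 and 150 min, against 8.2 and 9.0 TPM at 130 and 160 min, a log2 ratio of 0.64. UTP10 was at 22.8 and 25.8 TPM, against 15.7 and 16.3 TPM at 130 and 160 min (0.57), and CIC1 had a ratio of 0.54. No member passed 2-fold (1.52% of all features higher, 0.455% lower), UTP20 alone was 1.5-fold higher (7.13%), and both libraries were above both flanks in 42 members, compared to 67.6% of all features. The median ratio was 0.35, compared to 0.25 for all features, and after scaling it was 0.10, compared to 0.01, with 28 members above both flanks (32.5% of all features). GAR1 (-0.10), NOP10 (-0.07), NHP2 (-0.04) and NOP1 (-0.01) were below 0, and ribosomal protein genes had a median of -0.03. The members' mean in the 100 min library was 0.05, above the -0.09 and -0.15 of the libraries on either side, and after scaling all 3 means were -0.13.

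After 150 min the number of members above their own mean was highest at 230 and 240 min. At 240 min, 43 members were above it, compared to 61.6% of all features, and the members' mean log2 level was 0.11. At 230 min there were 42, compared to 63.0% of all features. After scaling the counts were 40 at 240 min and 35 at 230 min, compared to 50.7% and 51.2% of all features. NSR1 was at 163, 205, 219 and 184 TPM in the libraries of 220, 230, 240 and 250 min. At 270 min the mean was -0.20 (-0.06 after scaling) and the spread over members was an SD of 0.19, compared to 0.10 at 260 min and 0.08 at 280 min. BRX1 was at 61.7, 44.7 and 70.3 TPM in the libraries of 260, 270 and 280 min, and NOP56 at 89.5, 65.9 and 94.2 TPM. NOP56, NOP58, SOF1, RLP7, BRX1 and CIC1 had their lowest level of the series in the 270 min library, as did 7.79% of all features. The median of all features at 270 min was -0.14, and 28.3% were above their own mean. GAR1 was not low there, with 249, 256 and 230 TPM at 260, 270 and 280 min.

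The profiles of the members were alike over time. The median Pearson correlation between 2 members was 0.79 over 30 time points of log2(TPM + 1) (1081 pairs), compared to 0.31 for 5137 features averaging 10 TPM or more, 0.74 among the 110 other assembly factors and 0.59 among ribosomal protein genes. The points share 1 culture, and each library's total enters every gene. After scaling the medians were 0.74 for members, 0.003 for all such features, 0.62 for the other factors and 0.89 for ribosomal protein genes. Without 0, 10 and 20 min the members' median was 0.78, or 0.59 after scaling. DBP3, RPF2 and NMD3 followed the mean of the other members most closely, each at 0.97. NOP10 (0.35), GAR1 (0.38) and NHP2 (0.53) followed it least, whereas CBF5, the fourth protein of that particle, was at 0.93. These correlations of single members were computed on unscaled levels only. The mean member profile had a correlation of 0.97 with that of the other assembly factors. Its correlation was -0.17 with that of the ribosomal protein genes (0.34 after scaling) and -0.50 with that of the stress genes (-0.86 after scaling). Without 0, 10 and 20 min, the correlation with the ribosomal protein genes was -0.51, or -0.36 after scaling. The positive sign after scaling thus depended on these libraries. Without them, the correlation with the stress genes was -0.80, or -0.86 after scaling.

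Coding length was set against the ratios, and its relation to them differed between comparisons. Across the 47 members, Spearman's rho between coding length and the log2 ratio was 0.63 for 40 and 50 min against 10 and 20 min. It was 0.30 across the 4770 coding features averaging 10 TPM or more. Among the members it was -0.66 for 110, 120 and 130 min against 40 and 50 min, and -0.34 across those coding features. For 10 min against 0 min it was -0.30, and -0.07 across those features. For 60 to 80 min against 30 to 50 min it was -0.17, and -0.03 across those features. With the mean TPM of the member in place of its length, rho was -0.57 for 40 and 50 min against 10 and 20 min and 0.47 for 110, 120 and 130 min against 40 and 50 min, so length and level cannot be told apart here. Genes are not independent replicates, and these values are descriptions. The 15 members with coding sequences under 1000 bases had a median ratio of 0.57 at 40 and 50 min against 10 and 20 min, and the 11 members of 2000 bases or more a median of 0.96. The box H/ACA genes NOP10, NHP2 and GAR1, at 177, 471 and 618 bases, are among the shortest, and their part in the length relation was not tested. The same 4770 coding features were split by coding length into 10 bins, and the median of a gene's bin was subtracted. All 47 members then stayed below 0 for 10 min against 0 min (median -0.67). They also did so for 110 to 130 min against 40 and 50 min (median -0.32). For 40 and 50 min against 10 and 20 min, 43 stayed above 0 (median 0.39). For 30, 40 and 50 min against 0, 10 and 20 min, 23 were above 0 and 24 below.

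**Figure D5:**
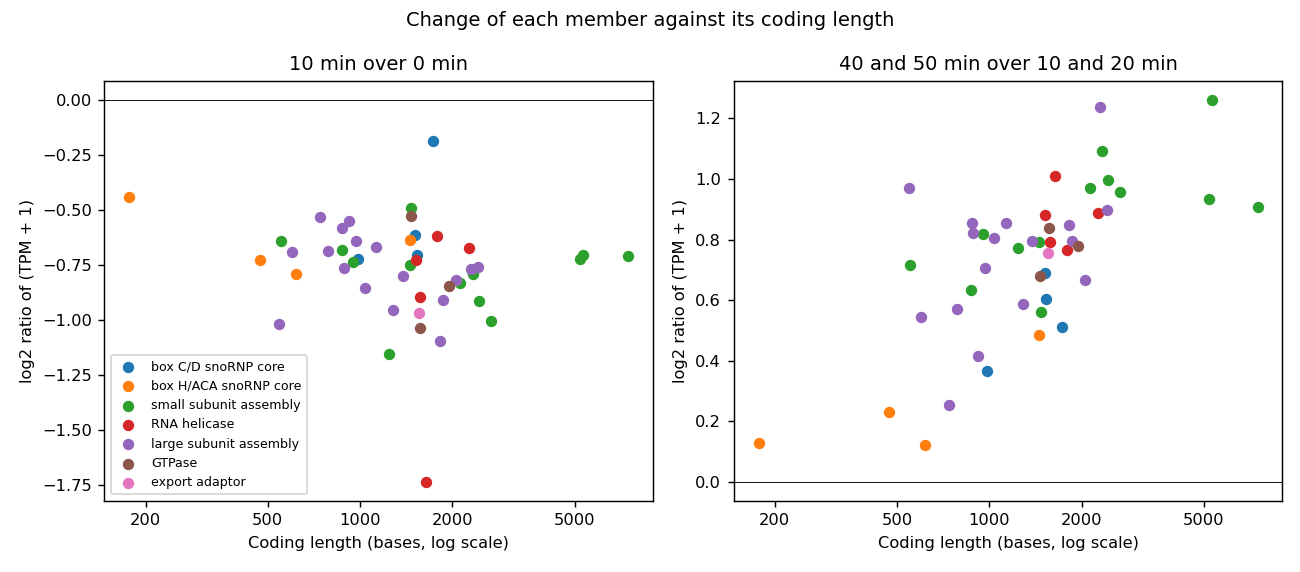
Log2 ratio of (TPM + 1) of each of the 47 members against its coding length in bases on a log axis, coloured by role, for 10 min over 0 min (left) and for 40 and 50 min over 10 and 20 min (right). All points lie below 0 on the left and above 0 on the right. There the 3 shortest box H/ACA genes lie lowest, with GAR1 at 0.12, NOP10 at 0.13 and NHP2 at 0.23.

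The motif content was also read against the levels of genes outside the list. Those with both cores include other assembly factors, of whose 110 promoters 77 hold both, and these factors were not set apart. For 10 min against 0 min, the 44 members with both cores had a median log2 ratio of -0.73, compared to -0.40 for 292 other genes with both cores and -0.04 for 4108 other genes with neither. In the same order, these medians were 0.78, 0.55 and 0.35 for 40 and 50 min against 10 and 20 min, and -0.52, -0.36 and -0.13 for 110 to 130 min against 40 and 50 min. After scaling they were -0.67, -0.35 and 0.01, then 0.37, 0.16 and -0.02, and then -0.37, -0.21 and 0.02. RRP9, which had the smallest ratio at 10 min, lacks the RRPE core, but ENP2, which lacks it too, was at -0.83. RIX1, which lacks the PAC core, was at -0.77.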

How the data were processed

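RNA was extracted with acid phenol and chloroform, and stranded mRNA libraries were sequenced, per the labels. The authors aligned reads with STAR, quantified transcripts with RSEM and deposited TPM values. The submitters' processing notes name build R64, and versions are not given in the sources used here. A deposited table of corrected scores was not used. Members, gene lists and comparisons were chosen with earlier results of these data known.

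Ratios were log2 of (mean TPM + 1) in the later over the earlier libraries, for features averaging 1 TPM or more, at a limit of 2-fold, or 1.5-fold where comparisons were added later. Named are the 3 largest and 3 smallest ratios per comparison, per role the highest level and the ratio of 30 to 50 min against 0 to 20 min farthest from 0, members against the common direction, and every member once with its level. Likeness was Pearson's r over 30 time points. Of 7127 features, 6047 (84.8%) matched R64 locus tags. The functions recovered known changes of over 2-fold in simulated data where few genes changed, as many up as down. That setting has no shift in the ribosomal protein share, so it does not test the scaling under such a shift or the 1.5-fold limit. Python 3.11.15, numpy 2.4.6, pandas 2.3.3 and matplotlib 3.10.9 were used.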

Additional observations from a re-analysis of the deposited data

How the results depend on the processing

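No paired analysis was possible because no time point has a replicate and no number links samples. With 1 library per time point, no library can be told apart from its time, and the read depth is unknown. Of the counts reported as 0, 48 of 52 alternative settings gave 0 again. Of the other counts and the likeness, 18 of 27 stayed within 1.5 times the reported count or within 1 SD over pairs. Scaling left 5 members past 1.5-fold for 40 and 50 min against 10 and 20 min, 4 for the decline, and 3 with their highest level at 40 to 60 min. At 2-fold the counts were 6 for 10 min against 0 min, 4 for 40 and 50 min and 1 for the decline. At 1.5-fold, 6 members passed for 30 to 50 min against 0 to 20 min and 1 for 140 and 150 min. Leaving out 1 library at a time gave 0 to 2 members past 2-fold for 30 to 50 min against 0 to 20 min. Of all features, 2.67 to 8.89% were then 2-fold higher. For 40 and 50 min against 10 and 20 min, 31 to 37 members were at least 1.5-fold higher. The share of all features there was 13.2% without the 10 min library (37 members) and 44.2% without the 20 min library (35 members). For the decline, 9 to 28 members were at least 1.5-fold lower, compared to 3.52 to 9.55% of all features. Leaving out 1 library gave 0 members in the other 2-fold comparisons. Both longer motifs stood in 14 promoters of members (29.8%), compared to 25.5% of those of the 110 other assembly factors and 1.32% of all 6001 promoters. The members' median ratio reversed with scaling for 30 to 50 min against 0 to 20 min, to -0.10, and for 250 to 290 min against 160 to 200 min, to 0.035. The pseudocount of 0.1 TPM changed no count by over 1.5 times. The causes of these differences were not tested.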

Other observations

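Features whose course was most like the mean member profile, by Pearson's r over 30 time points among 5090 features that are no members and have a mean of at least 10 TPM, included genes outside ribosome assembly. The closest was RPC40 (0.98), a subunit shared by RNA polymerases I and III, with 102 TPM at 10 min, against 172 TPM at 0 min, and 188 TPM at 50 min. The next were ARX1 and UTP14 (both 0.97), a large and a small subunit factor. RRB1, PWP1, DBP10, SSF1, PRP43 and TSR1, all assembly factors, and RPA49, of RNA polymerase I, were at 0.93 to 0.95. RPC40 and the other 5 of the first 15 are in none of the lists used here, and these 6 were named after their values were seen. TRM1 and NCL1, which methylate transfer RNA, were at 0.94, as were PUS7, a pseudouridine synthase, and URA7, which makes CTP. RMT2, a protein arginine methyltransferase, was at 0.93. Of the first 100, 51 were in the lists of other assembly factors and 4 in that of RNA polymerase I, which does not hold RPC40. No ribosomal protein gene was among the first 100.

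At the other end of the same ranking, the 9 lowest correlations, also named after their values were seen, were those of IGD1 (-0.90), PUT4 (-0.83), MDH1 (-0.80), TMA17 (-0.80), GLK1 (-0.79), HOR7 (-0.78), INH1 (-0.76), YDR133C (-0.75) and HXK1 (-0.74). After scaling, the correlations of these features with the scaled member profile were, in the same order, -0.60, -0.51, -0.56, -0.54, -0.73, -0.15, -0.36, -0.41 and -0.77. IGD1, a gene of glycogen metabolism, had 64.8 TPM at 10 min, against 29.9 TPM at 0 min, and 30.4 TPM at 50 min. GLK1, a glucose kinase, was at 730 TPM at 10 min, against 318 TPM at 0 min, and at 373 TPM at 50 min. GLK1 and HXK1 are in the list of stress genes and the other 7 in none of the lists. No explanation of these relations was tested.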
